A study of Caenorhabditis elegans with 21 samples.

Results

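Astacin metalloprotease genes and molting genes were examined across 7 genotypes of the hypoxia-inducible factor pathway in C. elegans. The members were chosen by name: every gene called nas-, mlt- or noah-, and fbn-1. That gave 48 of the 22037 genes in the files, of which 37 carried a nas- name, 8 an mlt- name and 2 a noah- name, and the remaining 1 was fbn-1. The name nas-2 was shared by a pair of gene identifiers, counted separately as copies A and B. RNA of whole worms was sequenced in 21 libraries, with 3 libraries for each genotype. The mutant genotypes were egl-9(sa307) hif-1(ia4), egl-9(sa307);vhl-1(ok161) and the single mutants egl-9(sa307), hif-1(ia4), vhl-1(ok161) and rhy-1(ok1402), and the wild-type strain N2 was their control. They are written below by gene name. All samples were young adults in which no eggs could be seen, grown on NGM plates seeded with OP50 bacteria, and a sample was made from 30 to 50 worms. Each mutated gene was represented by 1 allele, so a change seen in a genotype is a change in worms with that allele.

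Worms pass through larval molts, in which the epidermis secretes a new cuticle under the old one and the old one is then loosened and shed. Astacins are secreted zinc metalloproteases, and NAS-36 and NAS-37 are needed to shed the old cuticle, while NAS-6 and NAS-7 act in the pharyngeal cuticle. The mlt genes were named for larvae that fail to complete a molt, and NOAH-1, NOAH-2 and FBN-1 are parts of the apical extracellular matrix that covers the epidermis. In the oxygen-sensing pathway, EGL-9 hydroxylates HIF-1, VHL-1 recognises the hydroxylated protein for degradation, and RHY-1 inhibits HIF-1 activity through EGL-9.

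The libraries held 7329864 to 10102598 estimated counts. No reads were counted at vhl-1 in the genotypes that carry vhl-1(ok161), and hif-1 was at 13.7 ± 0.337 CPM in egl-9 hif-1 worms and 17.7 ± 4.003 CPM in hif-1 worms, against 115.2 ± 14.2 CPM in N2 (mean ± SD, n = 3). The egl-9 and rhy-1 genes were higher in their own mutants than in N2, so their levels do not check those labels. Known hif-1 targets, a list that includes egl-9 and rhy-1, were higher in egl-9 for 5 of 5 genes. Body wall muscle, pharynx and intestine markers were counted in all libraries. Of 3 epidermal collagen genes, col-19 was at 1466 CPM in egl-9 and 1685 CPM in N2 and was not called, rol-6 was at 8.97 CPM in egl-9 with no counts in N2 and was called, and dpy-7 did not pass the filter on low counts. Whether a genotype's libraries are separate cultures is not stated in the labels, so the p-values cover the spread between these libraries, which may be technical.

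Of the 48 genes, 37 passed the filter on low counts and were tested, 26 of them nas genes. By the level in N2 alone 23 would have passed, and the other 14 passed only through libraries of other genotypes. Among these 14, nas-3 had its highest genotype mean in N2, at 3.95 CPM. Counts and medians over the tested genes therefore describe them and support nothing further. The 11 genes not tested were both copies of nas-2, nas-10, nas-12, nas-13, nas-14, nas-16, nas-17, nas-18, nas-19 and nas-24. None of these 11 had more than 11 counts in a library. Copy A of nas-2, nas-16 and nas-19 had 0 counts in all 21 libraries, which allows up to 0.016 CPM over the libraries together. That limit covers counting error only. The 48 genes lay on all 6 chromosomes, with 16 of them on chromosome V.

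Transcript abundances scaled by length (TPM) allow levels to be set between genes. In N2, nas-20 was the most abundant member at 47.1 ± 13.4 TPM (mean ± SD, n = 3), followed by nas-9 at 18.99 ± 2.99 TPM and nas-11 at 16.6 ± 0.596 TPM, a pair whose SDs overlap. In egl-9;vhl-1 and in egl-9 the most abundant member was nas-11, at 104 ± 10.3 TPM in egl-9;vhl-1 and 76.01 ± 11.01 TPM in egl-9. In egl-9 its neighbour in the order was nas-20 at 70.3 ± 7.99 TPM, and the SDs of that pair overlapped. All other levels below are TMM-scaled counts relative to library size (CPM), which compare genotypes within a gene, and changes are log2 fold changes ± SE from edgeR's quasi-likelihood test. Calls were made below 0.05 after Benjamini-Hochberg adjustment over the 13043 genes tested. Counts and shares of genes given below as higher or lower are those of such calls.

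In egl-9 worms 23 of the 37 tested members were higher than in N2 and 1 was lower. Over all genes tested, 14.8% were higher and 11% were lower in that comparison. Of the 26 nas genes tested, 19 were higher, and of the 11 other members, 4 were higher. When only egl-9 and N2 were fitted, 16 members were higher and none was lower. The members' median log2 change was 1.87, beside 7.59e-05 over all genes tested, and it was the same with nas-23, which had no counts in N2, placed at its lower bound. Of the 23 members that would pass by N2 alone, 11 were higher, with a median of 0.97. Of the 14 that passed only through another genotype, 12 were higher, with a median of 3.47. In rhy-1 worms 26 members were higher and 1 was lower, where 16.7% and 12.8% of all genes were and 29.5% were called in either direction, and their median log2 change was 1.67, beside 0.02 over all genes tested. There 16 of the 23 that would pass by N2 alone were higher, with a median of 1.26. Of the other 14, 10 were higher, with a median of 2.74. Both comparisons used the same N2 libraries, and egl-9 and rhy-1 were not tested against each other. In whole-worm RNA, more cells that express a gene and more RNA per cell cannot be told apart.

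**Figure D1:**
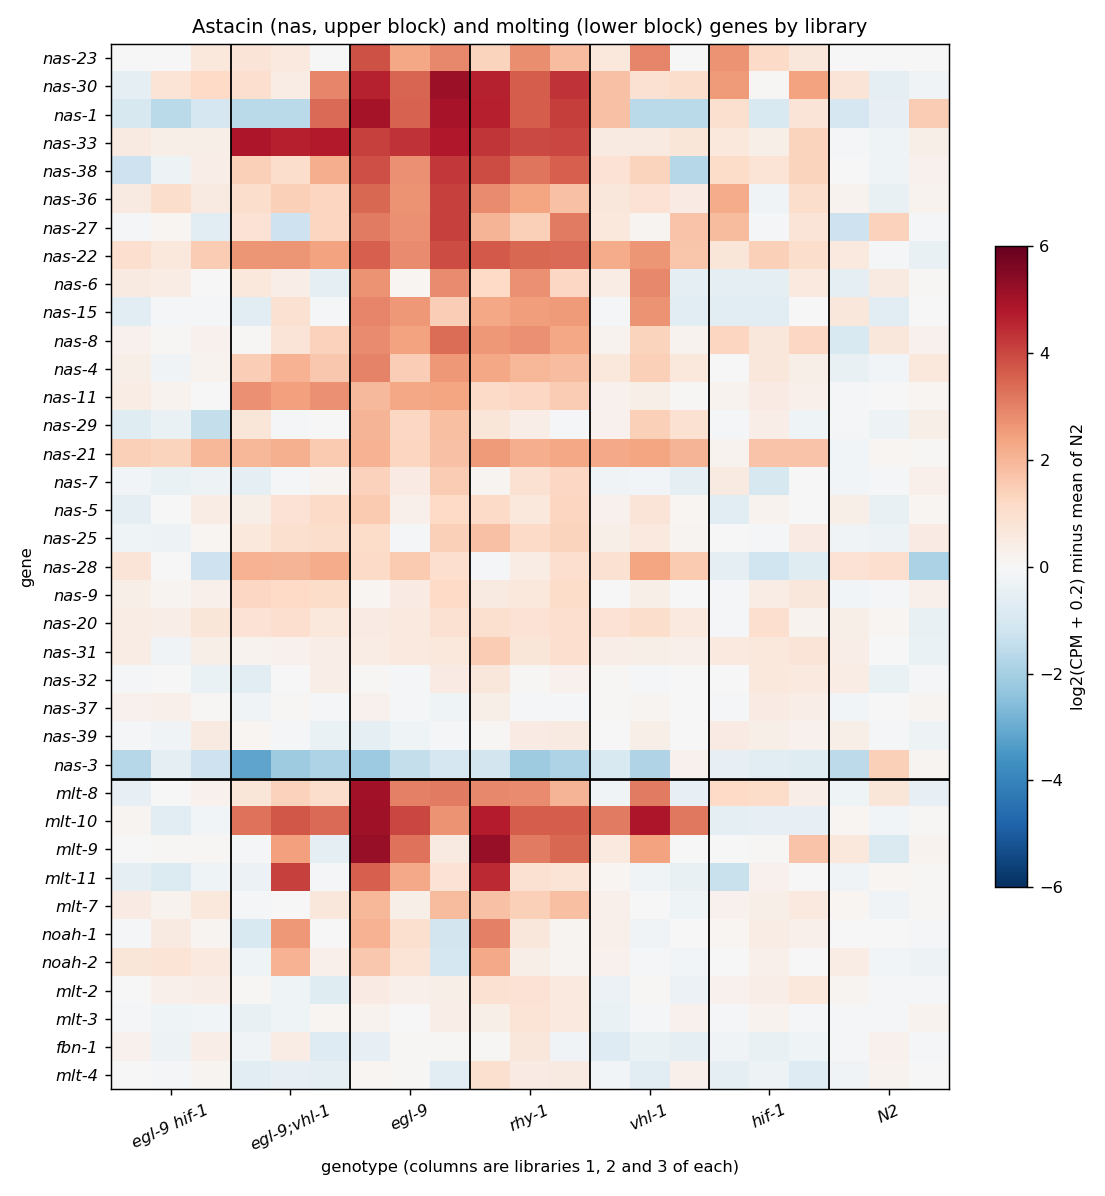
Log2(CPM + 0.2) of the 37 tested genes in each library minus the mean of N2, with nas genes in the upper block and the mlt, noah and fbn-1 genes in the lower block, each ordered by the change in egl-9. Columns are the 3 libraries of each genotype and colours run from −6 (blue) to 6 (red). Most red cells stand in the egl-9 and rhy-1 columns, and the egl-9 hif-1 columns are mostly pale, as those of N2 are.

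A large and even rise among the nas genes was that of nas-33. It was at 53.2, 62.1 and 86.2 CPM in the egl-9 libraries and at 59.00, 47.9 and 49.4 CPM in the rhy-1 libraries, against 2.69, 2.35 and 3.74 CPM in N2. Every egl-9 and rhy-1 library lay far above every N2 library. The change was 4.52 ± 0.22 in egl-9 (edgeR adjusted p = 1.34e-11) and 4.15 ± 0.22 in rhy-1 (edgeR adjusted p = 7.88e-11). The opposite-strand gene K10C2.6 overlaps 85 exonic bases of nas-33, and the libraries do not mark strand. Its own level was 1.88 CPM in egl-9 and 0 in N2, small beside that of nas-33.

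The nas-11 gene showed a smaller rise. Its CPM was 101, 132 and 134 in egl-9 and 57.7, 61.9 and 74.4 in rhy-1, against 24.9, 25.4 and 27.99 in N2. Again no libraries overlapped, and the egl-9 libraries also all lay above the rhy-1 libraries. The change was 2.23 ± 0.14 in egl-9 (edgeR adjusted p = 3.3e-10) and 1.31 ± 0.13 in rhy-1 (edgeR adjusted p = 9.92e-07). The opposite-strand gene smf-2 shares 163 exonic bases with it and stayed at 0.328 CPM in egl-9 and 0.121 CPM in N2.

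NAS-38 is an astacin of the epidermis that is expressed in step with the larval molts. Its gene was at 31.4, 14.5 and 41.5 CPM in egl-9 and 33.2, 20.1 and 25.98 CPM in rhy-1, against 1.96, 1.65 and 2.41 CPM in N2, with no overlap. The change was 3.86 ± 0.51 in egl-9 (edgeR adjusted p = 1.18e-05) and 3.71 ± 0.51 in rhy-1 (edgeR adjusted p = 2.45e-05). The gene of the shedding protease NAS-36 was at 13.3, 7.71 and 20.9 CPM in egl-9 and 8.54, 6.20 and 3.89 CPM in rhy-1, against 1.24, 0.706 and 1.21 CPM in N2. Here too the groups did not overlap, and the change was 3.71 ± 0.49 in egl-9 (edgeR adjusted p = 1.28e-05) and 2.54 ± 0.51 in rhy-1 (edgeR adjusted p = 0.000888). Its partner in shedding the cuticle, nas-37, was not called against N2 in any genotype. It was at 21.2, 16.9 and 14.97 CPM in egl-9 and 22.5, 16.2 and 16.8 CPM in rhy-1, against 15.7, 17.8 and 20.03 CPM in N2, and its change of −0.01 ± 0.16 in egl-9 was not called (edgeR adjusted p = 0.976).

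Among nas genes that were scarce in N2, nas-30 was at 15.5, 7.18 and 22.4 CPM in egl-9 and 15.99, 7.80 and 12.9 CPM in rhy-1, against 0.930, 0.235 and 0.362 CPM in N2. For nas-1 the levels were 19.5, 7.05 and 19.1 CPM in egl-9 and 15.3, 7.50 and 10.8 CPM in rhy-1, against 0.103, 0.235 and 1.57 CPM in N2. For nas-8 they were 12.2, 9.17 and 17.7 CPM in egl-9 and 10.5, 11.7 and 8.62 CPM in rhy-1, against 0.724, 2.59 and 1.93 CPM in N2. None of these 3 genes had an N2 library as high as its lowest egl-9 or rhy-1 library. The changes in egl-9 were 4.81 ± 0.73 for nas-30 (edgeR adjusted p = 5.94e-05), 4.61 ± 1.07 for nas-1 (edgeR adjusted p = 0.00301) and 2.91 ± 0.39 for nas-8 (edgeR adjusted p = 1.47e-05). In rhy-1 they were 4.51 ± 0.74 for nas-30, 4.17 ± 1.07 for nas-1 and 2.57 ± 0.39 for nas-8, all called. With DESeq2 the rhy-1 call of nas-1 was lost (adjusted p = 0.0638).

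Of the abundant genes, nas-9 was at 30.6, 40.3 and 64.5 CPM in egl-9 and 41.6, 43.7 and 60.9 CPM in rhy-1, against 24.9, 25.8 and 34.6 CPM in N2. The lowest egl-9 library lay below the highest N2 library, and the change of 0.67 ± 0.23 in egl-9 (edgeR adjusted p = 0.0357) was lost with a robust estimate of the spread (adjusted p = 0.0539), when only egl-9 and N2 were fitted (adjusted p = 0.114) and without egl-9 library 3, N2 library 1 or N2 library 2. The nas-39 gene, which encodes a relative of the procollagen-cleaving BMP-1 and tolloid proteases, was at 3.68 to 5.26 CPM in egl-9 and 4.59 to 7.24 CPM in N2 and was not called. Nor was nas-32, at 4.12 to 6.20 CPM in egl-9 and 3.30 to 5.99 CPM in N2. The same-strand gene F38E9.1 shares 276 exonic bases with nas-39. Its level was 8.01 CPM in egl-9 and 5.09 CPM in N2 (change 0.66, edgeR adjusted p = 0.0461).

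Most of the remaining nas genes were higher in egl-9 at low levels. Of NAS-6 and NAS-7, the pharyngeal pair, nas-7 was at 10.1, 5.45 and 11.3 CPM in egl-9, against 3.31, 3.41 and 4.71 CPM in N2, with a change of 1.24 ± 0.34 (edgeR adjusted p = 0.00949) that was lost without egl-9 library 3. For nas-6 the N2 libraries held 3 counts in all and the egl-9 libraries 33, a ratio of 11.9 with a 95% counting interval of 3.73 to 60.5. That interval covers counting error only, and the highest egl-9 library of nas-6 was 14.95 times the lowest. The nas-6 call (edgeR adjusted p = 0.0471) was lost when any of 15 libraries was left out. No count of nas-23 was found in N2. Taking 3 counts over the N2 libraries as the floor, its mean level was at least 14.0-fold higher in egl-9 and at least 5.96-fold higher in rhy-1. These limits allow for counting error in N2 only, not for the spread between libraries. The rhy-1 call of nas-23 was lost when any N2 library was left out (edgeR adjusted p = 0.0630 to 0.0753). It was also lost without rhy-1 library 2 (edgeR adjusted p = 0.105). The rises of nas-4 (2.53), nas-15 (3.26), nas-27 (3.55), nas-29 (2.17), nas-5 (1.19) and nas-25 (0.97) completed the set in egl-9, given as log2 changes. The calls of nas-5, nas-15 and nas-25 were each lost without egl-9 library 1 and without N2 library 2, and those of nas-5 and nas-25 also when only egl-9 and N2 were fitted (adjusted p = 0.0825 and 0.157). Those of nas-5 and nas-25 were also lost without egl-9 library 3, those of nas-5 and nas-15 without N2 library 3, and that of nas-25 without N2 library 1. In rhy-1 the call of nas-5 was lost when any of 4 libraries was left out. For nas-9, nas-15 and nas-27 that held for any of 3, 2 and 5 libraries. The nas-4 gene shares 437 exonic bases with C05D11.5 on the same strand, which fell by 1.26 on the log2 scale in egl-9.

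The nas-31 gene was higher in rhy-1, at 12.8, 7.20 and 8.84 CPM in rhy-1, against 5.79, 4.24 and 3.26 CPM in N2 (change 1.11 ± 0.22, edgeR adjusted p = 0.000899).

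A single nas gene fell. The nas-3 level was 0.475, 0.931 and 1.29 CPM in egl-9 and 1.19, 0.500 and 0.631 CPM in rhy-1, against 0.827, 7.89 and 3.14 CPM in N2, so N2 library 2 stood high and N2 library 1 lay within the range of the mutants. The calls in egl-9 (change −2.11 ± 0.67, edgeR adjusted p = 0.0251) and rhy-1 (change −2.31 ± 0.66, edgeR adjusted p = 0.0125) were both lost without N2 library 2. The call in egl-9 was also lost without egl-9 library 1 or egl-9 library 2 and when only egl-9 and N2 were fitted (adjusted p = 0.109), and that in rhy-1 without rhy-1 library 2. In egl-9;vhl-1 it was at 0.137, 0.501 and 0.645 CPM, below every N2 library (change −3.09 ± 0.74, edgeR adjusted p = 0.00295).

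Of the mlt genes, 4 were higher in egl-9. MLT-10 is a protein needed to complete the molt. Its gene was at 91.97, 43.3 and 17.8 CPM in egl-9 and 71.3, 34.2 and 33.7 CPM in rhy-1, against 2.79, 2.24 and 2.65 CPM in N2. The egl-9 libraries spread over a wide range yet all lay above N2, and the change was 4.31 ± 0.60 in egl-9 (edgeR adjusted p = 2.17e-05) and 4.17 ± 0.60 in rhy-1 (edgeR adjusted p = 3.98e-05). The overlapping same-strand genes lips-7 and T27A1.3 were at no more than 1.72 CPM in egl-9. About 17177 bases from mlt-10 on chromosome II, with 3 protein-coding genes between, lies mlt-8. The mlt-8 level was 19.7, 4.79 and 5.14 CPM in egl-9 and 4.27, 4.20 and 2.31 CPM in rhy-1, against 0.310, 0.824 and 0.241 CPM in N2. No libraries overlapped, and the change was 4.40 ± 0.84 in egl-9 (edgeR adjusted p = 0.000569) and 2.95 ± 0.89 in rhy-1 (edgeR adjusted p = 0.0168), where the call was lost without N2 library 1 or N2 library 3.

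MLT-7 is a heme peroxidase of the kind that cross-links cuticle collagens, and its gene was the most abundant mlt gene in egl-9, at 47.5 ± 22.9 TPM. Its level was 158, 51.05 and 149 CPM in egl-9 and 134, 108 and 138 CPM in rhy-1, against 43.00, 34.1 and 42.2 CPM in N2. Library 2 of egl-9 was close to N2 while the other two were high, and the change was 1.58 ± 0.29 in egl-9 (edgeR adjusted p = 0.000417) and 1.67 ± 0.29 in rhy-1 (edgeR adjusted p = 0.000289). The mlt-9 gene was at 29.2, 7.44 and 0.935 CPM in egl-9 and 29.4, 6.70 and 8.52 CPM in rhy-1, against 1.03, 0.235 and 0.724 CPM in N2. Library 3 of egl-9 overlapped N2 and library 1 was high, and the change of 4.18 ± 1.10 in egl-9 (edgeR adjusted p = 0.00763) was lost without egl-9 library 1. In rhy-1 the change was 4.43 ± 1.09 (edgeR adjusted p = 0.00443), with no overlap with N2.

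MLT-11 carries protease inhibitor domains of the Kunitz type. Its gene was at 24.1, 9.57 and 3.51 CPM in egl-9 and 44.00, 3.60 and 3.37 CPM in rhy-1, against 1.55, 2.001 and 1.93 CPM in N2. A single library in each mutant was far above the others, and all lay above N2. The change of 2.76 ± 1.15 in egl-9 was not called (edgeR adjusted p = 0.0869), and that of 3.22 ± 1.13 in rhy-1 was called (edgeR adjusted p = 0.0379) but was lost without rhy-1 library 1, without any N2 library, and with a robust estimate of the spread (adjusted p = 0.0773). MLT-2, MLT-3 and MLT-4 are ankyrin-repeat proteins that work with NEKL kinases in endocytosis. Their genes were not called in egl-9, where mlt-2 was at 5.45 to 6.29 CPM, against 4.10 to 4.96 CPM in N2, mlt-3 at 4.52 to 6.08 CPM, against 4.13 to 5.19 CPM in N2, and mlt-4 at 2.10 to 3.68 CPM, against 2.89 to 3.88 CPM in N2. In rhy-1 they were at 8.64, 8.10 and 6.73 CPM for mlt-2, 5.86, 7.998 and 6.84 CPM for mlt-3 and 6.65, 4.80 and 5.05 CPM for mlt-4, above every N2 library. Those rises were small, at 0.82 ± 0.20 for mlt-2 (edgeR adjusted p = 0.00409), 0.61 ± 0.20 for mlt-3 (edgeR adjusted p = 0.0241) and 0.70 ± 0.25 for mlt-4 (edgeR adjusted p = 0.0399). DESeq2 did not call mlt-4 (adjusted p = 0.0668) and its call was lost when any of 9 libraries was left out, while mlt-3 lost its call without N2 library 1, N2 library 2 or rhy-1 library 2. When only rhy-1 and N2 were fitted, neither mlt-3 (adjusted p = 0.0627) nor mlt-4 (adjusted p = 0.0580) was called, and without a filter on low counts mlt-4 was not (adjusted p = 0.0715).

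The matrix genes noah-1, noah-2 and fbn-1 were not called against N2 in any genotype. The noah-1 gene was at 13.5, 6.12 and 1.29 CPM in egl-9 and 25.7, 4.999 and 3.37 CPM in rhy-1, against 3.10, 3.06 and 2.90 CPM in N2, with egl-9 library 3 below N2. The noah-2 gene was at 13.5, 7.84 and 1.99 CPM in egl-9 and 21.9, 5.60 and 4.84 CPM in rhy-1, against 5.99, 3.88 and 3.50 CPM in N2. In both genes library 1 of each mutant was the highest. The changes in rhy-1 were 1.91 ± 0.82 for noah-1 (edgeR adjusted p = 0.0871) and 1.26 ± 0.62 for noah-2 (edgeR adjusted p = 0.140). The fibrillin-related fbn-1 was at 1.90 to 2.92 CPM in egl-9 and 2.48 to 3.30 CPM in N2.

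**Figure D2:**
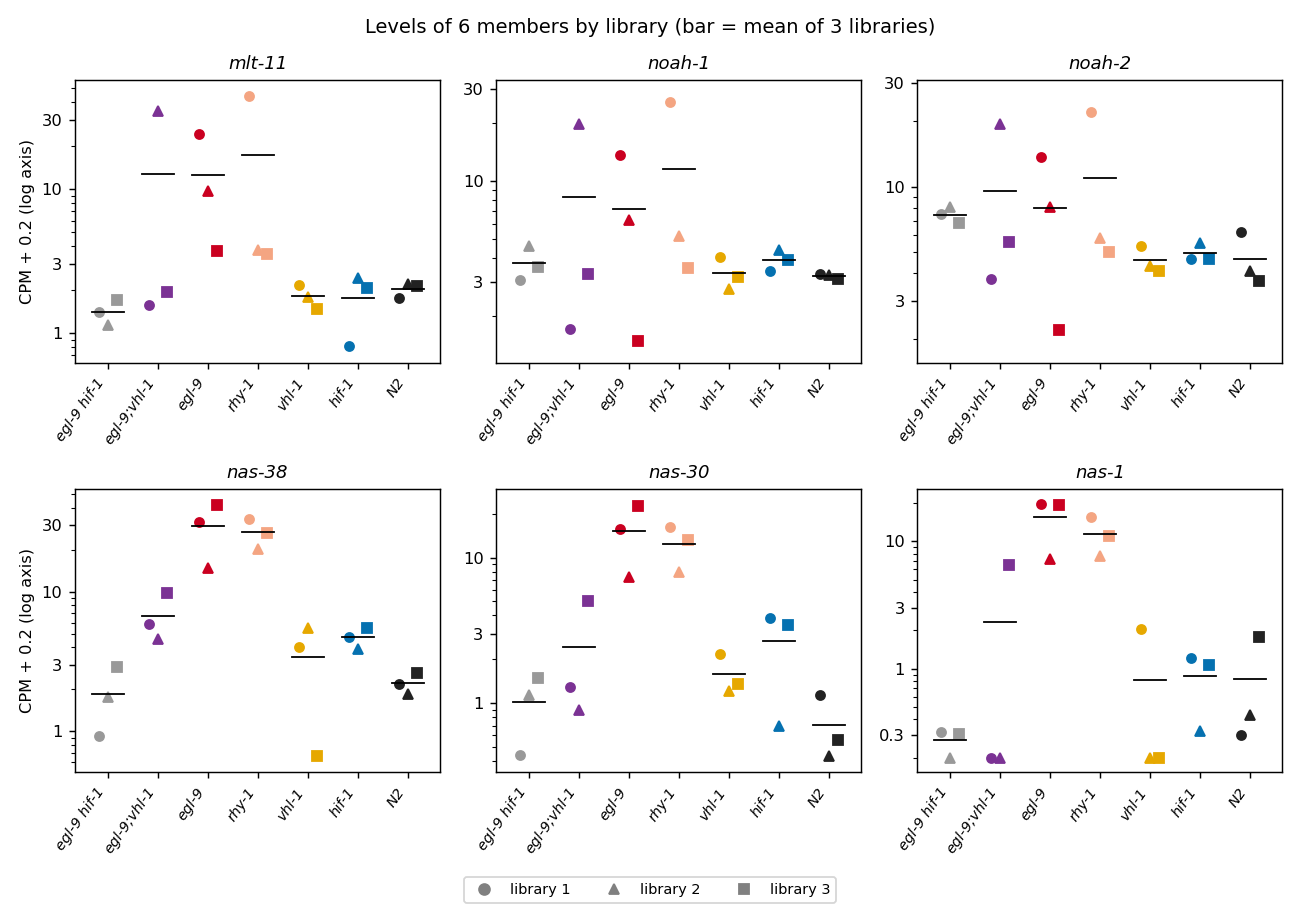
CPM + 0.2 of mlt-11, noah-1, noah-2, nas-38, nas-30 and nas-1 in each library on log axes, with bars at the mean of 3 libraries and a marker shape per library number. In mlt-11, noah-1 and noah-2, library 1 of egl-9 and rhy-1 and library 2 of egl-9;vhl-1 stand above the others, while nas-38 is high in all egl-9 and rhy-1 libraries.

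Which library of a genotype was highest differed between members. Of the 23 members higher in egl-9, 11 were highest in library 1, 12 in library 3 and none in library 2, and 17 were lowest in library 2. Highest in library 1 were mlt-7, mlt-8, mlt-9, mlt-10 and 6 nas genes besides nas-21, and highest in library 3 were nas-33, nas-38, nas-30, nas-36 and 8 more nas genes. The summed CPM of the tested members was 821, 564 and 803 in the egl-9 libraries, against 232, 218 and 225 in N2. The adult list (yolk protein genes and col-19) summed to 56379, 90030.3 and 73797 CPM in the same egl-9 libraries, against 140399, 106132 and 125459 CPM in N2. The egl-9 library with the lowest member sum had the highest adult sum, while the N2 library with the lowest member sum had the lowest adult sum. The part of adult-stage RNA in the members' changes was not tested.

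In egl-9 hif-1 worms only nas-21 was called against N2, 1 of 37, where 6.55% of all genes were called, 3.49% higher and 3.06% lower, and the median log2 change of the tested members was 0.09. DESeq2 called 2 members, and 3 were called without N2 library 1. Against egl-9, 20 of 37 members were lower and none was higher in egl-9 hif-1, where 13.2% of all genes were lower and 8.18% were higher. Of the 23 members that would pass by N2 alone, 9 were lower, with a median log2 change of −0.43. Of the other 14, 11 were lower, with a median of −3.92. The comparisons of egl-9 with N2 and of egl-9 hif-1 with egl-9 share the egl-9 libraries. The members not called against egl-9 include nas-6, nas-9 and nas-21, each called higher in egl-9 than in N2. In egl-9 hif-1 nas-33 was at 4.31, 3.78 and 3.73 CPM, which overlaps the range of 2.35 to 3.74 CPM in N2. For mlt-10 the levels were 2.87, 1.57 and 2.24 CPM in egl-9 hif-1 and for nas-11 35.7, 30.02 and 25.6 CPM, against 2.24 to 2.79 and 24.9 to 27.99 CPM in N2. The changes against egl-9 were −4.09 ± 0.21 for nas-33 (edgeR adjusted p = 2.76e-11), −4.52 ± 0.61 for mlt-10 (edgeR adjusted p = 1.65e-05) and −2.01 ± 0.13 for nas-11 (edgeR adjusted p = 1.22e-09). With 2 counts of nas-1 in egl-9 hif-1 and 380 in egl-9, egl-9 exceeded egl-9 hif-1 by a ratio of 211 with a 95% counting interval of 58.1 to 1753. That interval does not cover the spread between libraries.

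The interaction of egl-9 and hif-1, the change in egl-9 hif-1 minus the sum of the changes in egl-9 and hif-1, was called below 0 for 18 of 37 members and above 0 for none. Its estimate was above 0 without a call for 5 members. Of the 23 members that would pass by N2 alone, 10 were called. Over all genes tested, 22.1% were called, 13.7% below 0 and 8.42% above. It was −4.94 ± 0.34 for nas-33, −5.28 ± 0.78 for nas-38, −2.35 ± 0.19 for nas-11 and −3.96 ± 1.09 for mlt-10 (edgeR adjusted p = 2.55e-09, 6.85e-05, 4.1e-08 and 0.0134). Against hif-1, no member was called in egl-9 hif-1 by edgeR or by DESeq2, where 30.5% of all genes were called in either direction, and 3 were called when only those genotypes were fitted. In that comparison 5 members had an unadjusted p below 0.05.

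In the single mutant vhl-1, 4 of 37 members were higher and none was lower, where 6.54% of all genes were higher and 5.95% were lower, 12.5% in either direction. The largest was mlt-10, at 23.9, 79.96 and 24.6 CPM in vhl-1 against 2.79, 2.24 and 2.65 CPM in N2, with a change of 4.05 ± 0.60 (edgeR adjusted p = 0.000117). Every vhl-1 library was above N2, and library 2 was more than the other two together. The other 3 were nas-20, nas-21 and nas-22, and library 2 was the highest of vhl-1 for each of the 4. The nas-33 gene was at 4.27, 4.26 and 4.95 CPM in vhl-1, against 2.69, 2.35 and 3.74 CPM in N2, and was not called there (change 0.62 ± 0.27, edgeR adjusted p = 0.137). In hif-1, 2 of 37 were higher, nas-33 and nas-21, and none was lower, where 8.21% of all genes were higher and 6.14% were lower, 14.4% in either direction. The hif-1 level of nas-33 was 4.56, 3.71 and 7.57 CPM, a change of 0.85 ± 0.26 (edgeR adjusted p = 0.0369). No member was called in hif-1 without hif-1 library 3, and 1 was called without N2 library 2. The nas-33 call was lost without hif-1 library 3, N2 library 1 or N2 library 2, and the nas-21 call without hif-1 library 2, hif-1 library 3 or N2 library 1. Both calls were also lost when only hif-1 and N2 were fitted (adjusted p = 0.119 for nas-33 and 0.0646 for nas-21), a fit in which nas-38 was called instead (adjusted p = 0.0304).

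Set directly against vhl-1, 13 of 37 members were higher in egl-9 and none was lower, where 7.62% of all genes were higher and 4.33% were lower. Of the 23 members that would pass by N2 alone, 7 were higher. Among the 13, nas-33 differed by 3.90 ± 0.21 (edgeR adjusted p = 9.71e-11), nas-11 by 1.99 ± 0.13 (edgeR adjusted p = 2.45e-09) and nas-38 by 3.18 ± 0.48 (edgeR adjusted p = 0.00011). For mlt-10 the difference was 0.25 ± 0.46 and was not called (edgeR adjusted p = 0.820), with overlapping libraries.

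**Figure D3:**
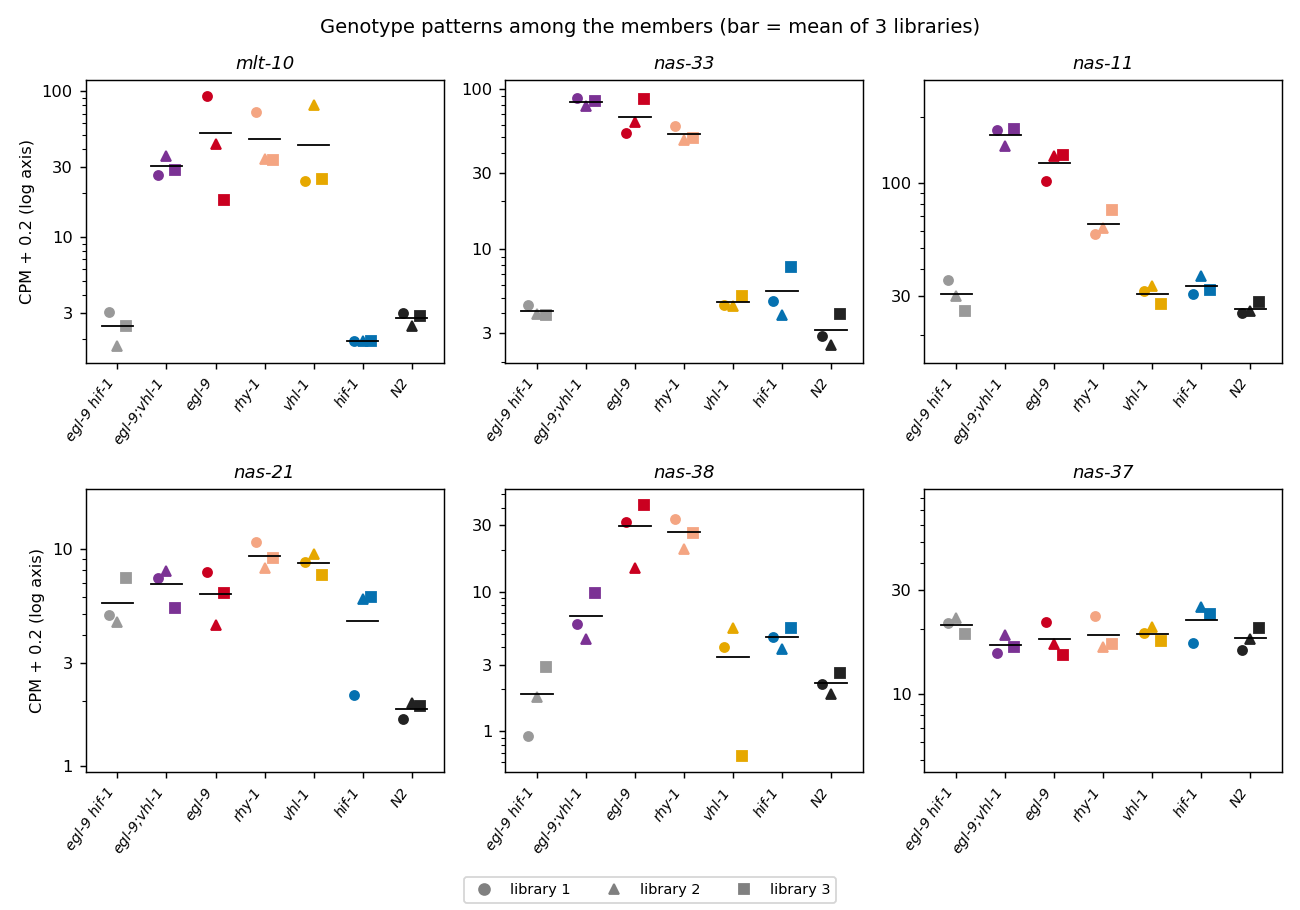
CPM + 0.2 in each library on log axes for mlt-10, nas-33, nas-11, nas-21, nas-38 and nas-37, with bars at the mean of 3 libraries. The mlt-10 level is high in egl-9;vhl-1, egl-9, rhy-1 and vhl-1, that of nas-33 and nas-11 in egl-9;vhl-1, egl-9 and rhy-1, that of nas-38 mostly in egl-9 and rhy-1, and the nas-37 points of each mutant overlap those of N2.

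In egl-9;vhl-1 worms 11 of 37 members were higher and 1 was lower than in N2, where 16.5% and 18.1% of all genes were. Against egl-9, 12 members were lower and 1 was higher in egl-9;vhl-1, where 6.69% and 1.78% of all genes were, 8.47% in either direction. That count of 13 was 5 without egl-9 library 1, 5 without egl-9;vhl-1 library 1, 8 without egl-9 library 3, 8 without egl-9;vhl-1 library 3, and 7 when only those genotypes were fitted. The comparisons of egl-9 with N2 and of egl-9;vhl-1 with egl-9 share the egl-9 libraries. Of the 23 members that would pass by N2 alone, 5 were lower and 1 was higher in egl-9;vhl-1 than in egl-9. The nas-38 level was 5.64, 4.41 and 9.56 CPM in egl-9;vhl-1, against 31.4, 14.5 and 41.5 CPM in egl-9, and the groups did not overlap. Its change was −2.16 ± 0.44 (edgeR adjusted p = 0.00699), and it remained higher than in N2 at 1.70 ± 0.55 (edgeR adjusted p = 0.0216), a call lost without egl-9;vhl-1 library 3, N2 library 1 or N2 library 2. For nas-36 the levels were 2.34, 3.11 and 2.79 CPM in egl-9;vhl-1, against 13.3, 7.71 and 20.9 CPM in egl-9, a change of −2.34 ± 0.43 (edgeR adjusted p = 0.00408). For nas-8 they were 1.65, 2.81 and 4.41 CPM in egl-9;vhl-1, against 12.2, 9.17 and 17.7 CPM in egl-9, a change of −2.11 ± 0.36 (edgeR adjusted p = 0.00240).

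Other members stayed high in the double mutant. The nas-33 level was 87.7, 77.96 and 83.7 CPM in egl-9;vhl-1, overlapping that of egl-9, with a difference of 0.31 ± 0.17 from egl-9 (edgeR adjusted p = 0.302). The nas-11 level was 174, 147 and 175 CPM in egl-9;vhl-1, above every egl-9 library. Its change against egl-9 was 0.44 ± 0.13 (edgeR adjusted p = 0.0379), a call lost without egl-9 library 1, egl-9 library 3, egl-9;vhl-1 library 1 or egl-9;vhl-1 library 3 and when only those genotypes were fitted (adjusted p = 0.0786). The mlt-10 level was 26.4, 35.97 and 28.4 CPM in egl-9;vhl-1. In egl-9;vhl-1 library 2, mlt-11 reached 34.8 CPM and noah-1 19.5 CPM, while libraries 1 and 3 were at or below 3.12 CPM for both. The nas-28 gene was called against N2, at 2.89, 2.81 and 3.22 CPM against 1.14, 1.29 and 0 CPM in N2 (change 1.83 ± 0.59, edgeR adjusted p = 0.0208), a call lost without egl-9;vhl-1 library 3 or N2 library 3.

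The interaction of egl-9 and vhl-1 was called below 0 for 13 of 37 members and above 0 for none. Over all genes tested, 8.79% were called, 5.73% below 0. The count of members was 6 without vhl-1 library 2. Its estimate was above 0 without a call for 8 members. Of the 23 members that would pass by N2 alone, 6 were called. The interaction was −4.80 ± 0.76 for mlt-10 (edgeR adjusted p = 0.000462) and −3.06 ± 0.73 for nas-36 (edgeR adjusted p = 0.0112). For nas-33 and nas-11 it was −0.31 ± 0.31 and 0.20 ± 0.19 and was not called (edgeR adjusted p = 0.616 and 0.586).

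**Figure D4:**
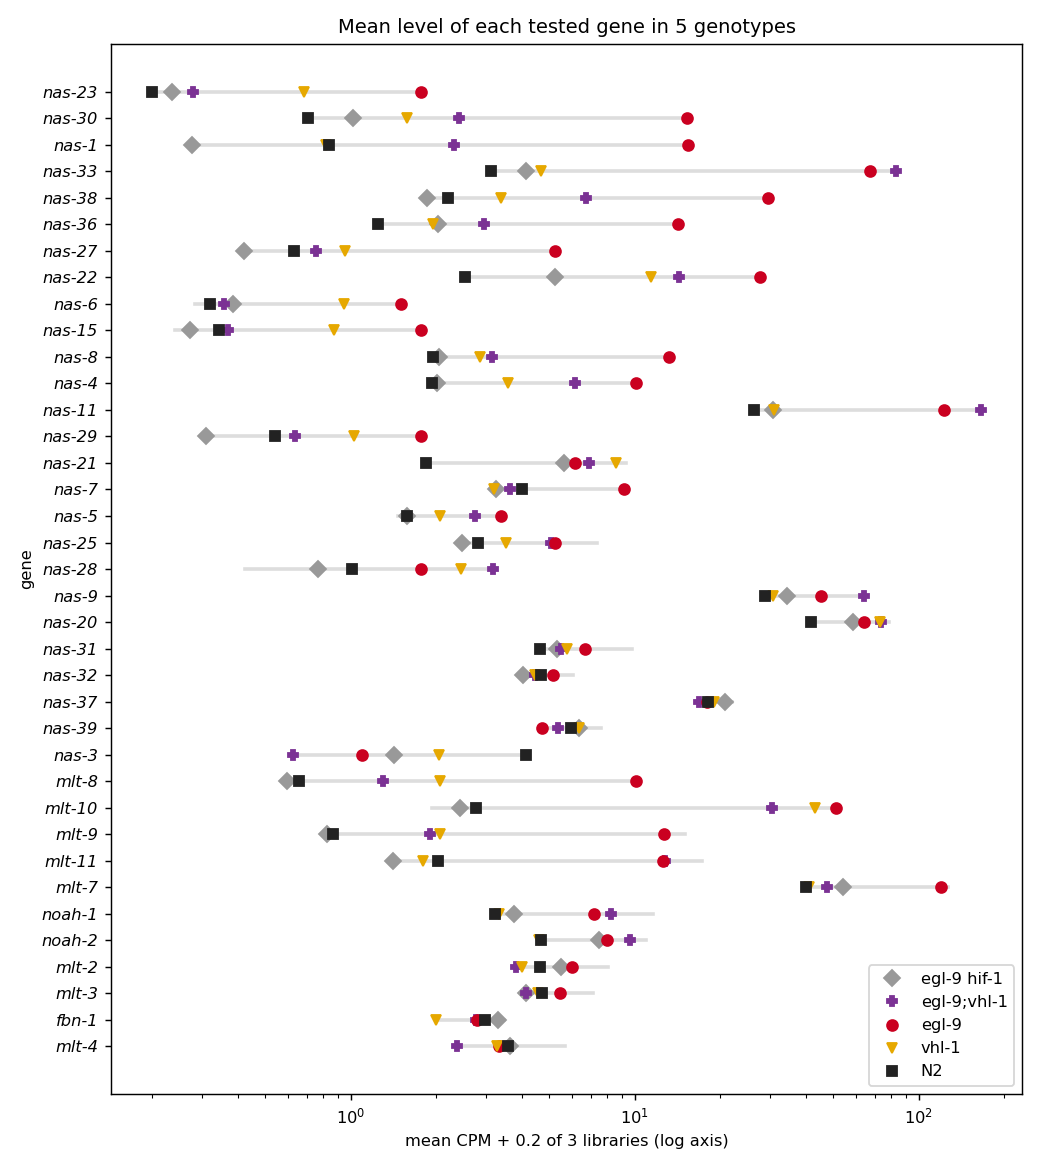
Mean CPM + 0.2 of 3 libraries for each tested gene in egl-9 hif-1, egl-9;vhl-1, egl-9, vhl-1 and N2 on a log axis, with a grey line across the lowest and highest of all 7 genotype means. For nas-33 and nas-11 the egl-9;vhl-1 and egl-9 points stand together at the right, and for nas-38, nas-36 and nas-8 the egl-9;vhl-1 point lies between egl-9 and N2.

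The genes nas-20, nas-21 and nas-22 lie side by side on chromosome V, 254 and 799 bases apart, with nas-20 on the opposite strand to the others. The nas-21 gene was called higher in each of the 6 mutants, all set against the same N2 libraries, though the hif-1 call was lost when only hif-1 and N2 were fitted. Its CPM was 4.79, 4.41 and 7.14 in egl-9 hif-1, 7.15, 7.72 and 5.16 in egl-9;vhl-1, 7.60, 4.25 and 6.08 in egl-9, 10.5, 7.998 and 8.84 in rhy-1, 8.55, 9.30 and 7.37 in vhl-1 and 1.93, 5.69 and 5.83 in hif-1, against 1.45, 1.77 and 1.69 in N2. All mutant libraries lay above all N2 libraries. The changes ran from 1.43 in hif-1 (edgeR adjusted p = 0.0141) to 2.48 in rhy-1 (edgeR adjusted p = 2.48e-05), and the change in egl-9 hif-1 against egl-9 was −0.14 ± 0.30 (edgeR adjusted p = 0.818). Beside it, nas-22 was at 28.8, 17.02 and 36.2 CPM in egl-9 and 11.2, 15.1 and 7.37 CPM in vhl-1, against 3.41, 2.001 and 1.57 CPM in N2, and no library of those mutants overlapped N2. It was called in egl-9, rhy-1, vhl-1 and egl-9;vhl-1, with changes of 3.53, 3.52, 2.24 and 2.57. The most abundant of the 3, nas-20, was at 79.1, 74.1 and 81.9 CPM in rhy-1 and 73.2, 84.3 and 61.2 CPM in vhl-1, against 51.3, 44.02 and 29.8 CPM in N2. It was called in rhy-1 (0.91 ± 0.23, edgeR adjusted p = 0.00485), vhl-1 and egl-9;vhl-1 but not in egl-9 (0.62 ± 0.23, edgeR adjusted p = 0.0521), and in vhl-1 the call was lost without N2 library 2, N2 library 3, vhl-1 library 1 or vhl-1 library 2. A second group of close genes on chromosome V, nas-16, nas-17, nas-18 and nas-19, held none that passed the filter.

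Lists of genes that work beside the members are set here against the shares over all genes tested, 14.8% higher and 11% lower in egl-9. Of 12 hedgehog-related and patched-related genes tested, 6 were higher in egl-9 and none was lower, with a median log2 change of 1.15. They included hog-1 at 15.5 CPM in egl-9 and 0.729 CPM in N2, and qua-1, a hedgehog-related gene needed for molting, at 30.6 CPM in egl-9 and 1.61 CPM in N2. Of 12 genes for molt timing, 3 were higher in egl-9, namely lin-42, the period-related gene that times the molts (2.56, edgeR adjusted p = 9.75e-05), bed-3 (2.33) and nhr-85 (1.54). Of 10 genes for endocytosis in molting, none was higher and 1, pan-1, was lower in egl-9 (−0.35). Of 14 genes for cuticle processing, 5 were higher, among them the collagen prolyl hydroxylase genes phy-2 (3.37) and dpy-18 (2.75), and 3 were lower, among them the cathepsin gene cpl-1 (−1.04). Of 117 cuticle collagen genes tested, 83 were higher in egl-9 and 14 were lower, and their median log2 change was 3.10 in egl-9, against −0.13 in egl-9 hif-1. Of the 7 adult-list genes, 5 yolk protein genes were lower in egl-9 and none was higher. These lists went through the same filter on low counts. Some of their genes lay below its cut of 1.13 CPM in N2, such as bed-3 at 0.682 CPM and nhr-85 at 0.492 CPM. Their counts and medians therefore describe the genes tested and support nothing further. The part of these lists in the members' changes was not tested.

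Transcript usage could be read for few members. The nas-37 transcripts C17G1.6a and C17G1.6b took 23.9% and 76.1% of the pooled estimated counts in egl-9, against 4.93% and 95.1% in N2, and this share was not tested. For nas-11, K11G12.1a took all estimated counts in both genotypes.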

How the data were processed

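Each deposited table gave estimated counts and length-scaled abundances (TPM) of 32905 transcripts, per the file headers. Tools listed by the submitters' processing notes are kallisto and bcl2fastq 1.8.4. Not given in the sources used here were the kallisto version, transcript set and genome build. The SmartSeq2 libraries named in the labels do not mark strand, so reads of overlapping and antisense genes cannot be told apart. Transcripts were matched to genes of Ensembl 115 (WBcel235), and 307 matched no gene and were kept as genes of their own. The deposited estimated counts were summed per gene and rounded, and no pair of libraries was identical.

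All 21 libraries were fitted together with edgeR 4.0.16 (R 4.3.3): genotype as the only term, TMM, the expression filter at a minimum count of 10 (13043 genes), the quasi-likelihood F-test and Benjamini-Hochberg adjustment within each of 12 comparisons, called below 0.05. There were 14 residual degrees of freedom. The SE was derived from the F statistic and the change, so it restates the test. The fit used edgeR's default estimate of the spread, which called 3363 genes in egl-9 against N2. A robust estimate was tried after the data were seen because its 3352 calls equalled the count of an earlier analysis of these data, and it is given only as an alternative. The other alternatives were DESeq2 1.42.0, RLE size factors, no filter, a minimum count of 30, fits of only the genotypes compared, a replicate block and leaving out each library. The edgeR step was tested on simulated data.

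Per-library values are given for the mlt, noah and fbn-1 genes tested and for nas genes whose mean reached 10 CPM in any genotype, taking up to 12 by widest range, of which 11 qualified. Other nas genes are given by range, or by value where called. Tested genes of other lists were named from among the up to 6 with the smallest p in egl-9, and not all of those are named. The members, the lists and the names in this text were chosen with earlier results of these data known.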

Additional observations from a re-analysis of the deposited data

Results flagged for a closer look

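The change in a double mutant differed from the sum of the changes in its single mutants, by the interaction test, for 18 members with egl-9 and hif-1 and for 13 with egl-9 and vhl-1 (edgeR, adjusted p below 0.05, n = 3 libraries per genotype). For egl-9 and hif-1 the log2 interaction was −7.61 for nas-1, −6.37 for nas-30, −5.28 for nas-38, −4.94 for nas-33 and −4.43 for nas-36. It was −3.96 for mlt-10, −3.86 for nas-8, −3.50 for nas-22, −2.35 for nas-11 and −1.53 for mlt-7. The value for nas-1 rests on 2 counts in egl-9 hif-1 and was not called with a robust estimate of the spread (adjusted p = 0.0609) or without library 1 or 2 of egl-9 hif-1, library 1 or 3 of hif-1, or library 1 or 2 of N2 (adjusted p = 0.0502 to 0.111).

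For egl-9 and vhl-1 the log2 interaction was −4.80 for mlt-10, −4.12 for nas-30, −3.20 for nas-22, −3.06 for nas-36, −2.83 for nas-38, −2.74 for nas-8 and −1.38 for mlt-7. The call of mlt-7 was lost with a robust estimate of the spread (adjusted p = 0.0857), when only the genotypes compared were fitted (adjusted p = 0.123) and when any of 12 libraries was left out. That of nas-30 was lost without egl-9 library 3, egl-9;vhl-1 library 1, N2 library 2 or vhl-1 library 1. That of nas-38 was lost without egl-9 library 3, N2 library 2, vhl-1 library 1 or vhl-1 library 2, and when only the genotypes compared were fitted (adjusted p = 0.0661). These interactions share the egl-9 and N2 libraries.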

How the results depend on the processing

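No member called in a comparison changed its direction under any alternative run. With RLE size factors, without a filter, at a minimum count of 30 and with a robust estimate of the spread, added after the data were seen, the count of members called stayed within 1.5 times in all 12 comparisons. Fits of only the genotypes compared gave 3 calls in egl-9 hif-1 minus hif-1, 7 in egl-9;vhl-1 minus egl-9, 1 in hif-1 minus N2 and 8 in the interaction of egl-9 and vhl-1. Those fits also gave 16 calls in egl-9 minus N2, where the main fit gave 24, and 15 in egl-9 hif-1 minus egl-9, where it gave 20. In rhy-1 minus N2 they gave 23 against 27, and in egl-9 minus vhl-1 10 against 13. DESeq2 gave 2 calls in egl-9 hif-1 minus N2 and 4 in hif-1 minus N2. Leaving out 1 library at a time gave 0 to 1 calls in egl-9 hif-1 minus hif-1, 1 to 3 in egl-9 hif-1 minus N2, 5 to 17 in egl-9;vhl-1 minus egl-9, 0 to 3 in hif-1 minus N2 and 6 to 15 in the interaction of egl-9 and vhl-1. It gave 18 to 24 in egl-9 minus N2 and 19 to 28 in rhy-1 minus N2. The cause was not tested. Whether library numbers pair the samples was not settled. No comparison had all 3 correlations of same-numbered libraries over 0.1, and the mean correlation of same-numbered libraries of different genotypes was 0.0157. However, 11 of 21 libraries were closest to their own number. A replicate block gave 24 calls in egl-9 minus N2, 25 in rhy-1 minus N2 (without mlt-11, adjusted p = 0.0560, and mlt-4, adjusted p = 0.0552), 4 in vhl-1 minus N2, 3 in hif-1 minus N2, 1 in egl-9 hif-1 minus N2 and 13 in egl-9;vhl-1 minus N2. It gave 20 in egl-9 hif-1 minus egl-9, 0 in egl-9 hif-1 minus hif-1, 13 in egl-9;vhl-1 minus egl-9, 13 in egl-9 minus vhl-1, and 18 and 12 in the interactions of egl-9 with hif-1 and with vhl-1. Members at or below about 1 CPM rest on few counts, which limits their precision.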
